A study of Mus musculus with 18 samples.

Results

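Solute carriers are membrane proteins that move nutrients, ions, metals, nucleosides and metabolites across the plasma membrane and the membranes of lysosomes, Golgi, mitochondria and peroxisomes. The genes described here are the solute carrier transcripts of mouse bone marrow-derived macrophages: every gene symbol starting with Slc and a digit that reached at least 100 counts in total over the 18 libraries of both count tables, apart from 10 symbols left out by name (Slc2a1, Slc3a2, Slc7a2, Slc7a5, Slc7a11, Slc11a1, Slc11a2, Slc16a1, Slc16a3 and Slc40a1). The rule took 164 of the 374 Slc symbols in the tables and of the 24059 symbols in all. Of the others, 201 were under 100 counts, 91 of them at 0. The symbols just outside were Slc16a5 with 84 counts, Slc16a4 with 93 and Slc13a2 with 95, and those just inside were Slc27a3 with 101, Slc4a11 with 112 and Slc25a47 with 116. The members were chosen by symbol and total counts, with the 10 names left out, and the rule itself uses no difference between groups. Slc7a6os, Slc4a1ap, Slc9a3r1 and the pseudogene Slc2a4rg-ps carry an Slc symbol but encode no carrier, and are counted in the class of their symbol. Slc9a3r1 encodes NHERF1, a scaffold that binds carriers and channels.

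The macrophages came from the marrow of C57BL/6J mice and were grown for 7 days in medium with 20% L929-conditioned medium, and then in serum-free medium with 4% of it. The first table held 3 libraries of untreated cells and 3 of cells given lipopolysaccharide (LPS), the bacterial ligand of Toll-like receptor TLR4. The second table held 12 libraries, all from cells given LPS: 3 with LPS alone, 3 given reconstituted HDL (rHDL) before LPS, 3 loaded with POPC/cholesterol-liposomes before LPS, and 3 loaded, given rHDL and then given LPS. The rHDL was CSL111, APOA1 with soybean phosphatidylcholine at 1:150, given on day 8 for 20 hours and washed off before LPS. The labels give neither the dose nor the duration of LPS, no group received rHDL without LPS, and nothing says whether the 3 libraries of a group came from separate animals or cultures. The p-values therefore measure the spread between these libraries, which may be technical.

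Library totals ran from 11450243 to 16835472 counts in the first table, and the second ran from 9464916 to 15607889. Levels are given as CPM, the count relative to the library total after scaling by edgeR's TMM factor. The members together held 0.97% to 1.38% of a library's counts. A gene was called where edgeR's quasi-likelihood test gave a Benjamini-Hochberg adjusted p under 0.05 over all genes tested in its table. After the filter on low counts 154 members were tested in the first table and 145 in the other. Scaling matters in the first table. With library totals alone in place of TMM, the median log2 fold change of all genes with LPS was -0.77 instead of -0.055, with rHDL it was 0.14 instead of 0.028, and for the difference between the rHDL effects it was -0.20 instead of -0.029. In bulk RNA, fewer cells of a type and less RNA per cell cannot be told apart.

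Some members could be counted only in part. The tables behave as if reads in bases shared by overlapping rows had been dropped: of 6698 rows whose exon bases were all shared, 6697 were at 0. Of the members, 127 had 1 row and no shared base, and 143 kept at least 50% of their exon bases to themselves. For 12 members under 20% of the bases were their own, among them Slc2a6 (7.68%) and Slc39a14 (5.40%). Their levels come from a small part of the transcript.

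The cells carried the macrophage transcripts Csf1r, Cd68, Lyz2 and Emr1, while Itgam was at 0 in every library. The 7 macrophage markers summed to 9560 to 12100 CPM with rHDL and LPS, against 19000 to 21100 CPM with LPS alone, 18900 to 20700 CPM after loading and 16300 to 20300 CPM after loading and rHDL. Most of that sum was Lyz2, with a mean of 13915 CPM with LPS and 6449 CPM with rHDL, while Cd68 moved the other way, from 340 to 486 CPM. In the first table the sum was 25900 to 30600 CPM untreated and 26500 to 31600 CPM with LPS. The 6 neutrophil markers, of which S100a9 was at 0, summed to 83.8 to 105 CPM over the first table, nearly all of it Mmp8. Mmp8 had a mean of 90.1 CPM untreated and 80.1 CPM with LPS. The means of S100a8, Ngp, Camp and Ltf were higher with LPS, S100a8 the most abundant of them at 4.15 CPM. In the second table the 6 markers, mostly S100a8 and Mmp8, summed to 13.1 to 16 CPM with LPS, 3.24 to 5.15 CPM with rHDL and 6.05 to 10.5 CPM over the loaded groups. The 5 lymphoid markers summed to at most 0.513 CPM. The 5 stromal or endothelial markers, nearly all of it Vwf, summed to 107 to 134 CPM with rHDL and LPS against 57.4 to 59.4 CPM with LPS alone, with Pecam1 at 0. The 6 dendritic markers, mostly Itgax and Bst2, summed to 502 to 646 CPM untreated and 1120 to 1210 CPM with LPS in the first table. The 7 mast, erythroid and megakaryocyte markers, mostly Pf4 and with 3 at 0, summed to 13.9 to 30.1 CPM untreated and 61.7 to 98.4 CPM with LPS. In the second table this sum was 54.3 to 61.2 CPM with LPS and 32.1 to 43.2 CPM with rHDL. The part of these shifts in the carrier results was not tested.

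Amino acid carriers feed protein synthesis and, from the lysosome, the kinase mTORC1. Metal carriers move zinc, copper, iron and heme, all of which macrophages withhold from or direct at microbes and recover from engulfed red cells. The SLC25 carriers exchange metabolites, nucleotides, phosphate and iron across the inner mitochondrial membrane. Activated macrophages are known for changed uptake of glucose and amino acids and for changed iron handling. By family number the members fall into 33 mitochondrial carriers, 29 carriers of inorganic ions and acid or base, 25 of amino acids, peptides and osmolytes, 24 of nucleosides, nucleotide sugars and acetyl-CoA, 18 of zinc, copper and heme, 16 of monocarboxylates and organic ions, 10 of sugars and polyols and 9 of vitamins, choline and fatty acids.

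A few carriers held a large share of the members' transcripts. The 10 members with the most CPM made up 49.4% of the members' CPM in untreated cells and 61.8% in LPS-treated cells of the first table. Levels between genes are compared per kilobase of own exon, over the 143 members with at least 50% own bases. In untreated cells Slc6a6, the taurine transporter, led with 332 ± 17.5 CPM per kb (SD, n = 3). Slc15a3, a lysosomal carrier of histidine and of peptides such as bacterial muramyl dipeptide, followed with 292 ± 16.5 CPM per kb, and Slc25a3, the mitochondrial phosphate carrier, with 254 ± 5.25 CPM per kb. These leading levels did not overlap between libraries. Next came Slc25a5, an ADP/ATP carrier, with 170 ± 11.1 CPM per kb and Slc48a1, the heme carrier HRG1, with 163 ± 3.95 CPM per kb, and the libraries of these neighbours overlapped. The median member stood at 9.19 CPM per kb, and 29 of the 143 were under 1 CPM per kb.

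In every LPS group Slc15a3 led. It stood at 1138 ± 88.6 CPM per kb with LPS in the first table. In the other it stood at 640 ± 31.0 with LPS, 606.5 ± 17.9 with rHDL, 586 ± 4.38 after loading and 631 ± 20.1 after loading and rHDL. Slc25a3 was second in each of these groups. Slc6a6 was the third except with rHDL, where Slc25a5 at 172 ± 12.5 CPM per kb stood above Slc6a6 at 122 ± 13.1 without overlap. The tables were scaled apart, so levels set across them carry that limit.

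**Figure D1:**
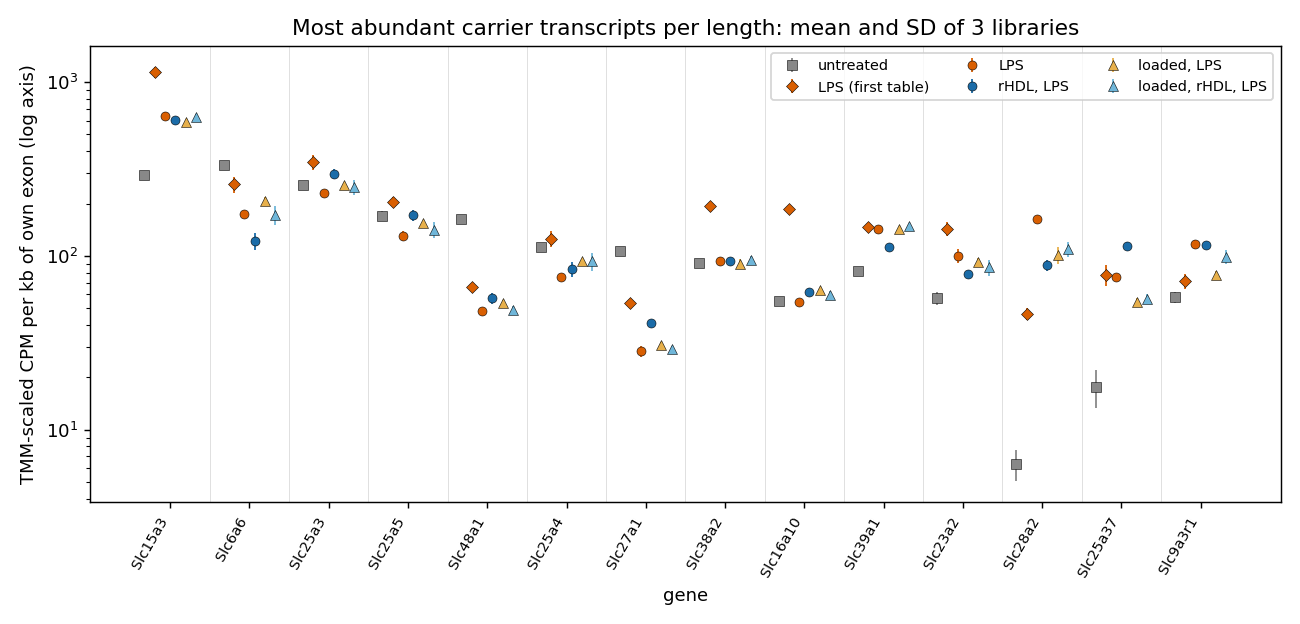
Mean CPM per kilobase of own exon (log axis) of 14 abundant members in the 6 groups, with the SD of 3 libraries. Slc15a3 was the highest of them in all 5 LPS groups, and Slc28a2 and Slc25a37 were lowest in untreated cells.

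RefSeq promoters (GRCm38.p6, the assembly of mm10) were found for 124 of the 164 members, and the 250 bases before the start site were searched on both strands for 5 motifs known for factors that act on carriers or in macrophages. A member was counted where any promoter of its symbol held the motif, while the shares of all promoters are of single promoters. The member counts and these shares are therefore in unlike units, and no enrichment was tested. The sequence CACGTGAC, a form of the E-box site bound by the lysosomal and stress regulators TFEB and TFE3, lay in 6 of the 124 members and in 1.85% of all 32851 promoters. Those 6 were Slc12a7, Slc20a1, Slc25a33, Slc35a5, Slc36a1 and Slc37a3. The promoters of 4 are shown because their transcripts changed with rHDL, with the match in capitals on the gene's strand, where GTCACGTG is the motif read from the other strand. They are chr2:129198523-129198772 (plus strand, Slc20a1), chr11:55204090-55204339 (plus strand, Slc36a1), chr4:149774268-149774517 (minus strand, Slc25a33) and chr13:73763447-73763696 (plus strand, Slc12a7).
Slc20a1: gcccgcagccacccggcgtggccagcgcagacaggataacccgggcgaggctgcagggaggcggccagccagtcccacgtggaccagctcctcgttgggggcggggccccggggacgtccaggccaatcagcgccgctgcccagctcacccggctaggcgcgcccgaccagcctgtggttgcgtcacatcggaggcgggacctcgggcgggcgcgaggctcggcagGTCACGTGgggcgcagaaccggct
Slc36a1: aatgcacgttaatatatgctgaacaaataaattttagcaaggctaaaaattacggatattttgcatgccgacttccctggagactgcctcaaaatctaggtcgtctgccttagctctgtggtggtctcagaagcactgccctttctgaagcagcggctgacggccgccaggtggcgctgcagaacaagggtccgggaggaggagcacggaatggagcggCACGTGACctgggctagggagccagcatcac
Slc25a33: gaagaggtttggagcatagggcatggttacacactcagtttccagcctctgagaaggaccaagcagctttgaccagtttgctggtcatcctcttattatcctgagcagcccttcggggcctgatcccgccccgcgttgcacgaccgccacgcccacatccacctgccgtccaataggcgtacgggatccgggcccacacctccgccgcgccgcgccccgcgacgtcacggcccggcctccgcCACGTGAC
Slc12a7: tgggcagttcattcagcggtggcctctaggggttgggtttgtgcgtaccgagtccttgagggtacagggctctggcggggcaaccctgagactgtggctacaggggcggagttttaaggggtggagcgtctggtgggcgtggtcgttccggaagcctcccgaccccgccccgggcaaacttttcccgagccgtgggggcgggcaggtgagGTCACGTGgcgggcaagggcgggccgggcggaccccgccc
The match lay 24 to 17 bases before the start site of Slc20a1, 31 to 24 before that of Slc36a1, 8 to 1 before that of Slc25a33 and 40 to 33 before that of Slc12a7. A match describes these letters only.

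The core TGCACNC or TGCGCNC of the metal response element, bound by the zinc sensor MTF1, lay in 47 of the 124 members, by any promoter, and in 21.4% of all promoters taken singly. Slc30a1, which encodes the zinc exporter ZnT1, is the member best known as a target of that factor. Its promoter, chr1:191906531-191906780 (plus strand), is shown with the match in capitals, TGCACTC on the other strand, 43 to 37 bases before the start site.
Slc30a1: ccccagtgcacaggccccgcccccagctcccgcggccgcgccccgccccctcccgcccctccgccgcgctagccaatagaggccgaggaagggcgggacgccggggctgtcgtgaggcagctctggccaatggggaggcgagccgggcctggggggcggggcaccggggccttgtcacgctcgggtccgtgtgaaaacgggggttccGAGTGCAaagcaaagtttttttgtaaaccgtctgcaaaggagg
TGATGNAA, a core of the amino acid response element, lay in 3 of the 124 members and 3.45% of all promoters, among them Slc9a9. GAAA, any 2 bases and GAAA again, a core of interferon response elements, lay in 2 members and 2.98% of all promoters, and the kB consensus in 11 members and 3.90%.

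LPS changed most of the carriers and lowered more than it raised. Of the 154 members tested, 47 rose and 76 fell, where 72.9% of all 9576 genes tested were called, 35.3% higher and 37.6% lower. The members' median log2 fold change was -0.30, against -0.055 over all genes. With library totals alone 22 rose and 110 fell, so the split depends on the scaling. Under that scaling rises smaller than the shift of the all-gene median turn into falls.

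**Figure D2:**
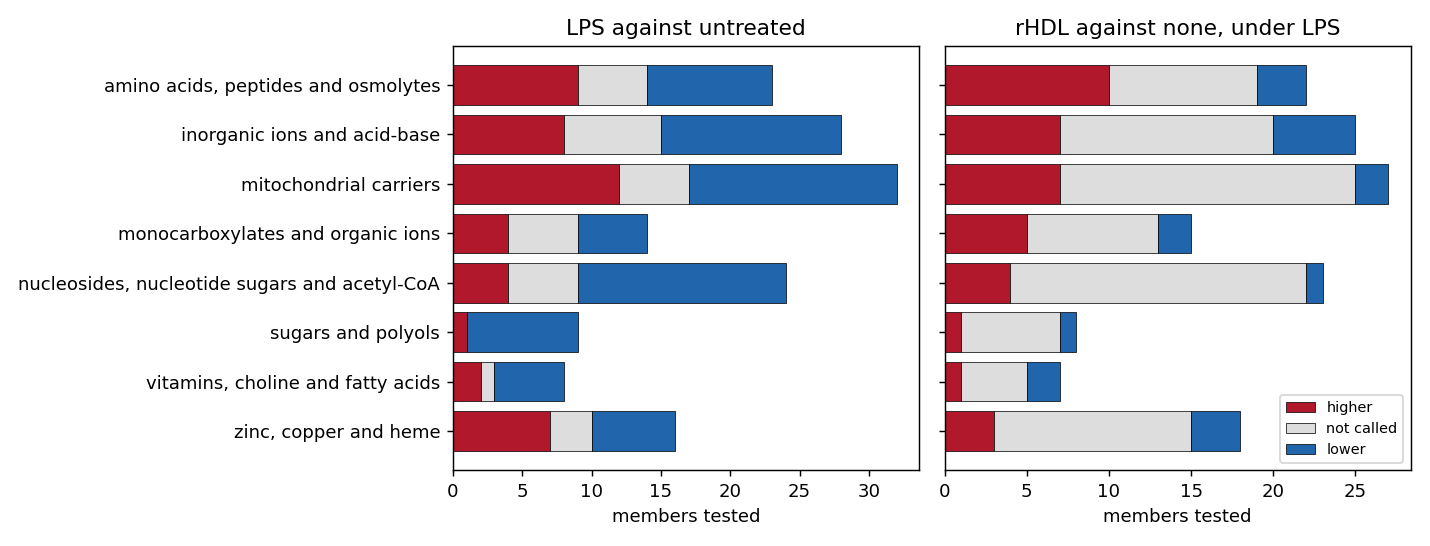
Members tested in each class, by call (higher, not called, lower) for LPS against untreated cells on the left and for rHDL against none under LPS on the right. With LPS 8 of 9 sugar and polyol members fell, and with rHDL 10 of 22 amino acid members rose.

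Amino acid and peptide carriers split evenly with LPS, 9 of 23 higher and 9 lower (7 and 12 with library totals). The plasma membrane carriers Slc7a1, Slc7a8, Slc38a2 and Slc1a4 and lysosomal Slc15a3 rose, while lysosomal Slc36a1 and Slc38a9 fell. Slc15a3 (chr19:10842544-10857915, plus strand, mm10) had 624, 655 and 699 CPM untreated and 2362, 2761 and 2587 CPM with LPS. The lowest LPS library was well above the highest untreated one, and the log2 fold change was 1.96 ± 0.09 (SE, adjusted p = 6.63e-09).

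Slc7a1, the cationic amino acid transporter CAT1 that imports arginine, went from 124, 121 and 125 CPM to 640, 508 and 565 CPM, for a log2 fold change of 2.21 ± 0.09 (adjusted p = 3.45e-09). Slc7a8, the neutral amino acid exchanger LAT2, went from 91.5, 85.5 and 112 CPM to 373, 280 and 368 CPM, for a log2 fold change of 1.82 ± 0.13 (adjusted p = 2.81e-07). In both genes all LPS libraries lay above all untreated ones. Slc38a2, the SNAT2 carrier of small neutral amino acids, rose by 1.08 ± 0.08 and Slc1a4, the ASCT1 exchanger, by 1.24 ± 0.11 on the log2 scale. The libraries of the 2 groups did not overlap for either of these genes.

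Slc36a1 exports amino acids from the lysosome together with protons. It had 51.4, 54.2 and 54 CPM untreated and 11.5, 8.02 and 9.1 CPM with LPS, and fell by 2.48 ± 0.12 on the log2 scale (adjusted p = 1.13e-08). Slc38a9, a lysosomal arginine sensor of the mTORC1 pathway, went from 47, 46.2 and 44.7 CPM to 21.5, 21 and 18 CPM, for a log2 fold change of -1.19 ± 0.09 (adjusted p = 5.17e-07). For both genes the groups were apart. Slc7a6 (log2 fold change -0.81), the glutamine carrier Slc1a5 (-0.51), the endolysosomal peptide carrier Slc15a4 (-0.47) and Slc6a6 (-0.36) fell less.

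Among sugar and polyol members 8 of 9 fell with either scaling, the pseudogene Slc2a4rg-ps among them. Slc5a3, which imports myo-inositol with sodium (chr16:92058322-92087473, plus strand), had 121, 73.6 and 98.7 CPM untreated and 11.6, 8.02 and 8.4 CPM with LPS. This was the largest fall among called members with a mean of at least 2 log2 CPM whose groups did not overlap, at -3.39 ± 0.20 on the log2 scale (adjusted p = 5.44e-08). Slc37a4, the glucose-6-phosphate carrier of the endoplasmic reticulum, went from 16.7, 16.8 and 17.1 CPM to 7.58, 6.83 and 7.45 CPM. Its groups were apart and its log2 fold change was -1.21 ± 0.11. Slc2a3, the glucose transporter GLUT3, fell from 4.96, 4.43 and 5.24 CPM to 2.27, 2.07 and 1.91 CPM, for a log2 fold change of -1.22 ± 0.18. The 1 member that rose was Slc2a6, which encodes the lysosomal hexose transporter GLUT6. It had 7.09, 6.76 and 6.39 CPM untreated and 98.4, 93.6 and 102 CPM with LPS, a log2 fold change of 3.85 ± 0.09 (adjusted p = 6.29e-11) measured over the 7.68% of its bases that are its own.

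Metal carriers went both ways, 7 of 16 higher and 6 lower (3 and 9 with library totals). The copper importer Slc31a1 (CTR1) had 103, 96 and 120 CPM untreated and 431, 406 and 396 CPM with LPS, a log2 fold change of 1.95 ± 0.09 (adjusted p = 9.1e-09). The zinc importer Slc39a14 (ZIP14), which also carries iron, rose from 1.11, 1.3 and 0.68 CPM to 17, 10.5 and 12.8 CPM over its few own bases. The groups did not overlap in either gene, and the log2 fold change of Slc39a14 was 3.64 ± 0.25. Slc48a1 takes heme out of the phagolysosome. It fell from 419, 404 and 401 CPM to 175, 160 and 162 CPM, for a log2 fold change of -1.30 ± 0.07 (adjusted p = 3.35e-08). The zinc importer Slc39a10 fell by 1.66 ± 0.10 and the zinc exporter Slc30a1 by 0.69 ± 0.08 on the log2 scale, while the zinc importer Slc39a1 rose by 0.84 ± 0.07 (0.12 and not called with library totals).

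Of 32 mitochondrial family members 12 rose and 15 fell with LPS (4 and 25 with library totals). Slc25a37, mitoferrin-1, which brings iron into mitochondria, had 69.5, 57.8 and 93.3 CPM untreated and 372, 284 and 312 CPM with LPS. Every LPS library was above every untreated one, and the log2 fold change was 2.14 ± 0.16 (adjusted p = 4.56e-07). The peroxisomal carrier Slc25a17 rose by 1.75 ± 0.07 and the aspartate/glutamate carrier Slc25a12 by 1.04 ± 0.10 on the log2 scale. Slc25a45 went from 47.4, 44.9 and 47.7 CPM to 12.3, 11.5 and 13.9 CPM, with no overlap and a log2 fold change of -1.89 ± 0.10. Slc25a24, the ATP-Mg/phosphate carrier, fell by 1.25 ± 0.07. Slc25a3 stood 0.44 ± 0.08 higher on the log2 scale with TMM and 0.28 lower with library totals, so its direction rests on the scaling.

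Nucleoside and nucleotide-sugar members mostly fell, 15 of 24 against 4 that rose (19 and 2 with library totals). The largest riser, Slc28a2 (chr2:122426477-122461130, plus strand), encodes a sodium-coupled importer of purine nucleosides. It had 27.2, 28 and 19 CPM untreated and 187, 164 and 192 CPM with LPS, a log2 fold change of 2.86 ± 0.14 (adjusted p = 9.18e-09). Slc29a3, the nucleoside carrier that lets nucleosides out of the lysosome, moved the other way, from 167, 188 and 163 CPM to 59.2, 37.8 and 46.4 CPM. Neither gene had overlapping groups, and the log2 fold change of Slc29a3 was -1.86 ± 0.14 (adjusted p = 4.04e-07).

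Of 28 ion and acid-base members 8 rose and 13 fell (1 and 22 with library totals). Slc4a7, the sodium bicarbonate cotransporter NBCn1, was the 1 riser that kept its call under both scalings, from 206, 209 and 184 CPM to 523, 434 and 517 CPM. Its groups were apart and its log2 fold change was 1.30 ± 0.09 (adjusted p = 2.7e-07). Slc26a11, a sulfate and chloride transporter of the lysosome and plasma membrane, had 33.4, 34.8 and 38.2 CPM untreated and 4.63, 3.26 and 3.64 CPM with LPS. It fell by 3.20 ± 0.13 on the log2 scale (adjusted p = 3.09e-09), again with no overlap. The phosphate importer Slc20a1 was 0.67 ± 0.09 higher with TMM and 0.05 lower with library totals.

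Among carriers of organic ions, 4 of 14 rose and 5 fell (2 and 9 with library totals). Slc16a10, the aromatic amino acid transporter TAT1, rose from 297, 289 and 300 CPM to 1031, 982 and 995 CPM, for a log2 fold change of 1.76 ± 0.07 (adjusted p = 2.45e-09). Among vitamin, choline and fatty acid carriers 2 of 8 rose and 5 fell. Slc23a2, the vitamin C transporter SVCT2, rose from 369, 390 and 331 CPM to 986, 813 and 940 CPM, for a log2 fold change of 1.33 ± 0.10. The choline transporter Slc44a1 rose by 2.01 ± 0.08 on the log2 scale. In these genes no LPS library fell within the untreated range.

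Of the fatty acid transport proteins tested Slc27a1 and Slc27a6 fell, and Slc27a4 was not called, at a log2 fold change of -0.11 ± 0.09 with overlapping groups (-0.83 and called with library totals). Slc27a1 (FATP1) had 299, 285 and 306 CPM untreated and 150, 145 and 154 CPM with LPS, and fell by 0.99 ± 0.07 on the log2 scale (adjusted p = 2.55e-07). Slc27a6 fell by 2.22 ± 0.15. Slc46a3, a lysosomal carrier related to the folate transporter, went from 40.4, 44.9 and 39.9 CPM to 5.64, 5.88 and 6.33 CPM, for a log2 fold change of -2.81 ± 0.10 (adjusted p = 1.37e-09). The LPS libraries of Slc27a1, Slc27a6 and Slc46a3 all lay below the untreated ones.

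**Figure D3:**
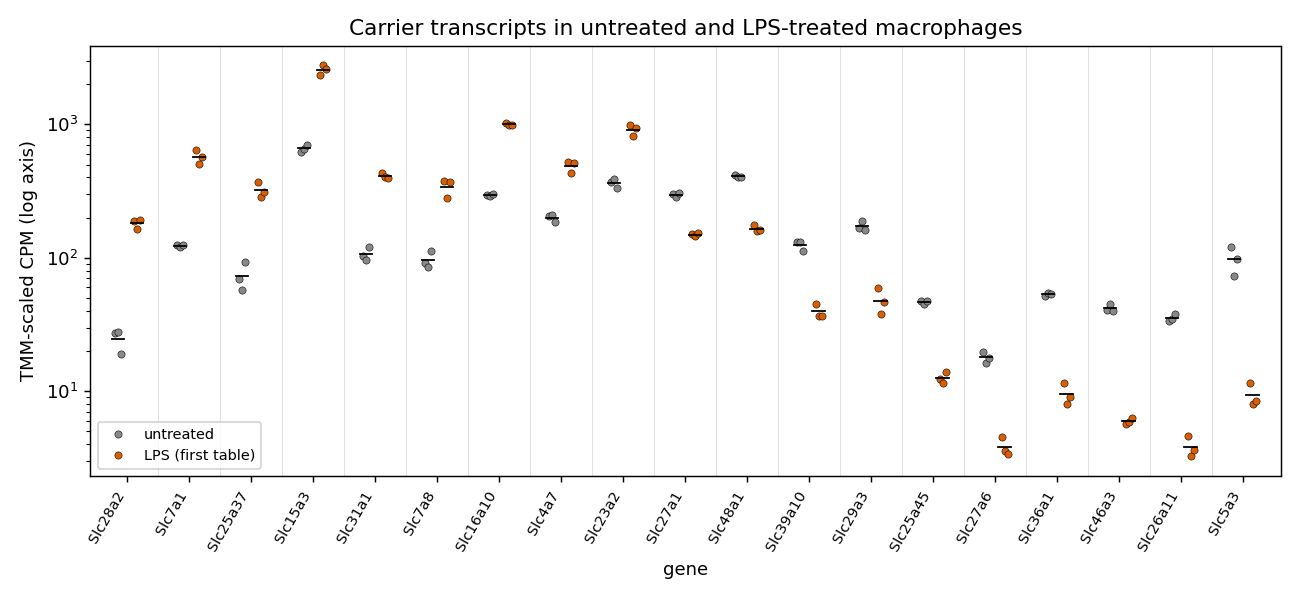
CPM (log axis) of 19 members in the 3 untreated and 3 LPS-treated libraries of the first table, with points for libraries and bars for means. The groups do not overlap in any of them, from Slc28a2, highest in fold among the risers shown, to Slc5a3.

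With rHDL before LPS, 38 of 145 members rose and 19 fell against LPS alone, where 36.5% of all 8965 genes tested were called, 18.1% higher and 18.4% lower. With DESeq2's size factors 35 rose and 24 fell, and with library totals 51 and 17, so the split depends on the scaling. The members' median log2 fold change was 0.10, against 0.028 over all genes. By the size of the fold change alone, a change of at least 1.5-fold in either direction was seen in 32 of 145 members, against 88 of 154 with LPS. This cut was not counted over all genes, so these counts say nothing particular to the members. In the authors' deposited table of rHDL-changed genes 28 of the 1609 rows are members. Their log2 fold changes there were at least 0.4702 or at most -0.7577, while the calls here set no limit on the fold change. The counts are therefore not alike.

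In the class of amino acid, peptide and osmolyte carriers 10 of 22 members rose and 3 fell. The 10 include Slc7a6os, which encodes no carrier, and Slc43a3, a nucleobase carrier by function. With DESeq2's size factors 9 of this class rose and 4 fell, and with library totals 11 and 3. Slc7a6, the exchanger y+LAT2, had 9.47, 13.7 and 7.63 CPM with LPS and 15.3, 21.8 and 18.3 CPM with rHDL. Slc38a7, a lysosomal glutamine carrier, went from 67.9, 85.8 and 74.6 CPM to 113, 119 and 121 CPM. In neither did the groups overlap, and the log2 fold changes were 0.83 ± 0.21 (adjusted p = 0.00723) and 0.63 ± 0.11 (adjusted p = 0.000387).

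Slc1a5, the glutamine carrier ASCT2, had 30.9, 44.2 and 32.8 CPM with LPS and 53.5, 53.5 and 53.4 CPM with rHDL, a log2 fold change of 0.57 ± 0.14 (adjusted p = 0.00495). Slc36a1, one of the promoters with CACGTGAC, had 14.3, 15.4 and 15.4 CPM and 18.6, 23.1 and 22.8 CPM, for a log2 fold change of 0.51 ± 0.13 (adjusted p = 0.00627). All rHDL libraries of both genes lay above all LPS libraries. The largest rise of any tested member was that of Slc43a3, from 0.426, 0.817 and 1.42 CPM to 3.03, 4.04 and 3.69 CPM, at low counts. Slc43a3 carries purine nucleobases, and its log2 fold change was 2.01 ± 0.30 (adjusted p = 0.000118).

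The 3 that fell were Slc6a6, Slc7a8 and Slc6a4. Slc6a6, the taurine transporter, went from 1092, 1086 and 1053 CPM to 656, 798 and 794 CPM, for a log2 fold change of -0.52 ± 0.09 (adjusted p = 0.000569). Slc7a8 went from 303, 257 and 273 CPM to 220, 216 and 219 CPM, for a log2 fold change of -0.35 ± 0.09. The libraries of these genes did not overlap. Slc6a4, the serotonin transporter, was low throughout, at 3.19, 1.64 and 2.83 CPM with LPS and 1.39, 0.278 and 0.677 CPM with rHDL. Slc15a3, the most abundant member, had 1524, 1420 and 1391 CPM with LPS and 1400, 1324 and 1385 CPM with rHDL, overlapping groups that were not called (adjusted p = 0.339). Slc7a1 was not called either, at a log2 fold change of -0.15 ± 0.10.

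Ion carriers held large changes in both directions. Of 25 members 7 rose and 5 fell (6 and 6 with DESeq2's size factors, 9 and 4 with library totals). Slc9a9 (chr9:94669892-95230452, plus strand) encodes NHE9, a sodium/proton exchanger of endosomes. It had 65.8, 73.7 and 73.2 CPM with LPS and 24.4, 20.7 and 21.3 CPM with rHDL. No library of one group came near the other, and the log2 fold change was -1.68 ± 0.09 (adjusted p = 1.12e-08).

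Slc12a9, a relative of the cation-chloride cotransporters, fell from 58.2, 40.1 and 49.7 CPM to 22.8, 23 and 23.3 CPM, for a log2 fold change of -1.10 ± 0.14 (adjusted p = 2.85e-05). The potassium-chloride exporter Slc12a7 (KCC4) fell from 110, 91.4 and 110 CPM to 66, 57 and 62.5 CPM, for a log2 fold change of -0.75 ± 0.10 (adjusted p = 3.79e-05). The groups were apart in both. Its sodium-potassium-chloride importing relative Slc12a2 (NKCC1) moved up, from 12.3, 11.5 and 12.1 CPM to 17.3, 20.4 and 18.4 CPM, for a log2 fold change of 0.64 ± 0.12 (adjusted p = 0.000862).

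The 2 magnesium carriers called moved in opposite directions. Slc41a2 rose from 54.3, 63.2 and 57.6 CPM to 94.7, 107 and 114 CPM, for a log2 fold change of 0.85 ± 0.12 (adjusted p = 5.56e-05). Slc41a1 fell from 23.8, 20.5 and 23.1 CPM to 12.7, 14.6 and 14.7 CPM, for a log2 fold change of -0.68 ± 0.10 (adjusted p = 0.000142). Slc20a1, the phosphate importer PiT1, rose from 33.2, 48.5 and 31.1 CPM to 60.4, 75.5 and 65.5 CPM, for a log2 fold change of 0.83 ± 0.15 (adjusted p = 0.000649). The groups of all of these were apart.

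Of 18 metal members 3 rose and 3 fell (3 and 4 with DESeq2's size factors, 5 and 3 with library totals). The zinc importer Slc39a6 (ZIP6) rose from 49.7, 61.8 and 59.1 CPM to 85, 96.8 and 95.8 CPM, for a log2 fold change of 0.70 ± 0.10 (adjusted p = 8.23e-05). The zinc exporter Slc30a1 went from 89.5, 64.8 and 84.3 CPM to 48.9, 40.3 and 43.6 CPM, for a log2 fold change of -0.84 ± 0.13 (adjusted p = 0.000168). Neither gene had a library of one group within the range of the other. The zinc importers Slc39a4 (log2 fold change -0.94 ± 0.18) and Slc39a1 (-0.35 ± 0.05) also fell, and Slc30a5, which loads zinc into the secretory pathway (0.28 ± 0.07), rose. The heme carrier Slc48a1 rose by 0.25 ± 0.07 (adjusted p = 0.0128), a call lost without rHDL library 2 (adjusted p = 0.0762).

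Of 27 mitochondrial members tested 7 rose and 2 fell. The iron importer Slc25a37 rose from 330, 307 and 310 CPM to 443, 486 and 492 CPM, for a log2 fold change of 0.59 ± 0.07 (adjusted p = 1.89e-05). Its paralogue Slc25a28, mitoferrin-2, moved the other way, from 49, 50.5 and 47.9 CPM to 34, 31.2 and 31.2 CPM, for a log2 fold change of -0.61 ± 0.09 (adjusted p = 7.55e-05). The groups did not overlap in either. Slc25a12 fell from 93.3, 67.5 and 84.4 CPM to 52.2, 40.6 and 45.1 CPM, for a log2 fold change of -0.83 ± 0.14 (adjusted p = 0.000253).

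The citrate carrier Slc25a1, which exports the substrate of fatty acid and sterol synthesis, had 56, 56.6 and 58.1 CPM with LPS and 82.1, 80.2 and 75.9 CPM with rHDL, a log2 fold change of 0.48 ± 0.08 (adjusted p = 0.000207). Its groups were apart. Slc25a5 rose by 0.40 ± 0.08, Slc25a3 by 0.37 ± 0.08, the carnitine carrier Slc25a20 by 0.35 ± 0.09 and the pyrimidine nucleotide carrier Slc25a33 by 0.55 ± 0.13 on the log2 scale.

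Of 23 nucleoside and nucleotide-sugar members 4 rose and 1 fell (4 and 2 with DESeq2's size factors, 7 and 1 with library totals). Slc35e4, an orphan relative of nucleotide-sugar carriers, rose from 20.4, 33.2 and 25.1 CPM to 48, 58.6 and 53.4 CPM, for a log2 fold change of 1.01 ± 0.16 (adjusted p = 0.000149). The purine nucleoside importer Slc28a2 fell from 630, 649 and 617 CPM to 372, 321 and 344 CPM, for a log2 fold change of -0.87 ± 0.09 (adjusted p = 4.84e-06). In both genes the groups stood apart. Of 8 sugar and polyol members, the pseudogene Slc2a4rg-ps among them, 1 rose and 1 fell (0 and 2 with DESeq2's size factors).

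Of 15 carriers of monocarboxylates and organic ions 5 rose and 2 fell, and of 7 carriers of vitamins, choline and fatty acids 1 rose and 2 fell (2 and 1 with library totals). Slc13a3, a sodium-coupled dicarboxylate importer, went from 22.4, 19.9 and 26.1 CPM to 15.4, 9.54 and 11 CPM, for a log2 fold change of -0.92 ± 0.18 (adjusted p = 0.00109). Slc22a4, which imports ergothioneine, rose from 1.92, 1.91 and 2.18 CPM to 4.05, 4.04 and 4.82 CPM, for a log2 fold change of 1.10 ± 0.18 (adjusted p = 0.000276). Neither overlapped. FATP1, encoded by Slc27a1, had 73.3, 79.4 and 84.9 CPM with LPS and 118, 110 and 116 CPM with rHDL, again with no overlap and a log2 fold change of 0.53 ± 0.07 (adjusted p = 2.58e-05). The vitamin C transporter Slc23a2 fell by 0.34 ± 0.08.

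**Figure D4:**
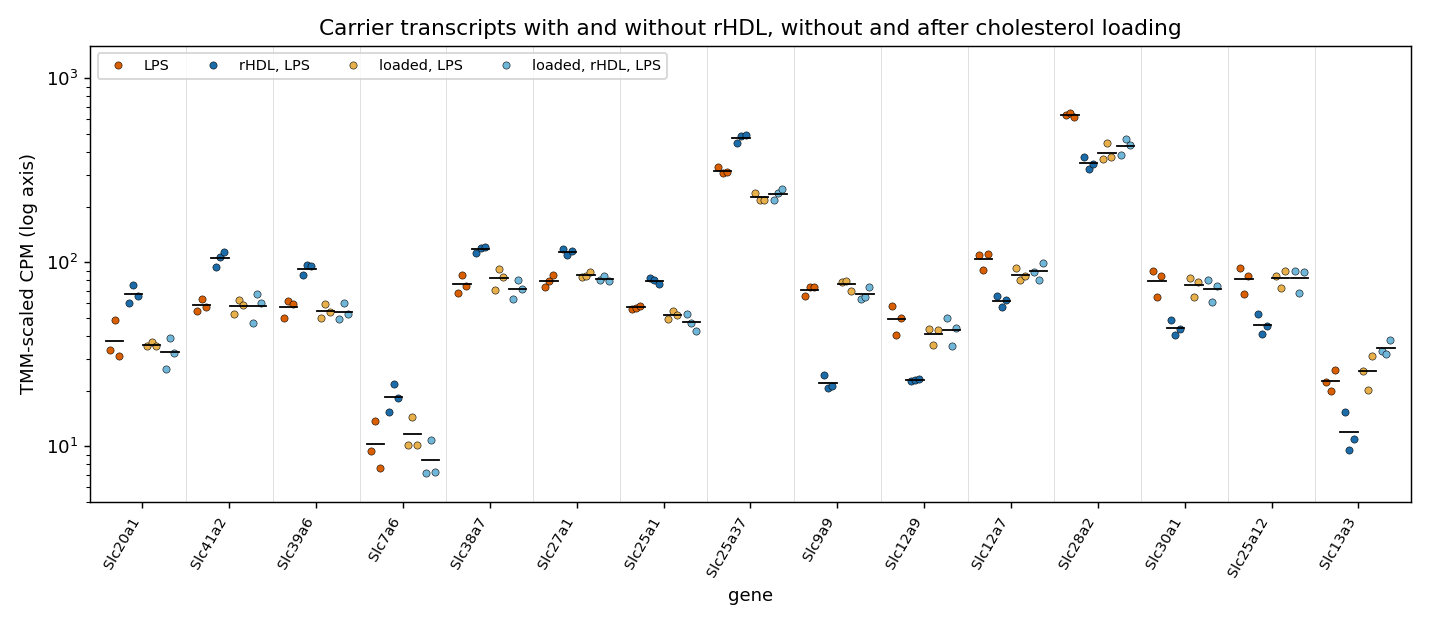
CPM (log axis) of 15 members in the 12 libraries of the second table, with points for libraries and bars for means. From Slc20a1 to Slc25a37 the rHDL libraries lie above the LPS libraries, from Slc9a9 to Slc13a3 below them, and after loading the libraries with and without rHDL overlap in all of them but Slc13a3.

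The LPS and rHDL comparisons used separate libraries, so their calls can be set side by side. Of the 45 members raised by LPS and tested in both tables, 10 rose and 10 fell with rHDL. Over all 3330 such genes 15.2% rose and 30.8% fell, and among the members the shares were 22.2% and 22.2%. Of the 68 members lowered by LPS, 20 rose and 7 fell, 29.4% and 10.3%, against 22.4% and 9.97% of 3110 such genes. Slc28a2, Slc7a8, Slc25a12, Slc23a2 and Slc13a3 rose with LPS and fell with rHDL. Slc36a1, Slc27a1, Slc7a6, Slc1a5 and Slc22a4 fell with LPS and rose with rHDL. The 10 that rose in both comparisons include Slc25a37, and the 7 that fell in both include Slc9a9, Slc30a1, Slc41a1, Slc12a7 and Slc6a6. All these calls were made with TMM. Of the 10, Slc20a1, Slc25a1, Slc25a3, Slc25a5, Slc25a33 and Slc41a2 had negative log2 fold changes with LPS under library totals, from -0.451 to -0.048. Those of Slc16a10, Slc25a37, Slc38a6 and Slc6a9 stayed positive.

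After cholesterol loading rHDL changed few members. Of 145 tested 2 rose and none fell, where 1.02% of all 8965 genes tested were called, 0.424% higher and 0.591% lower. At an unadjusted p under 0.05 there were 25 members, and DESeq2 called 3 higher, both of these among them, and none lower. With replicate number added to edgeR's fit more members were called, in both directions (counts below). The log2 fold change was under 0.5 in size for 139 of the 145. No member is in the authors' deposited table of rHDL-changed genes after loading, which has 47 rows. Their list without loading held no member with a small change, so absence from this one is no like comparison with the calls here.

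The 2 were Slc25a24, from 24.1, 21.9 and 23.7 CPM to 33.2, 29.1 and 34.4 CPM, and Slc9a3r1, the NHERF1 scaffold, from 146, 158 and 140 CPM to 195, 204 and 170 CPM. The groups were apart in both, with log2 fold changes of 0.47 ± 0.10 (adjusted p = 0.0344) and 0.36 ± 0.08 (adjusted p = 0.0438). Leaving out a library ended the Slc25a24 call in 5 of 6 cases, with adjusted p of 0.0781, 0.162 and 0.126 without loaded LPS libraries 1, 2 and 3 and 0.0589 and 0.135 without loaded rHDL libraries 1 and 3. The Slc9a3r1 call ended with adjusted p of 0.143, 0.0756 and 0.225 without loaded LPS libraries 1, 2 and 3 and 0.0697 and 0.12 without loaded rHDL libraries 1 and 2. Both also ended with library totals (adjusted p = 0.0762 and 0.166) and in a fit of the compared groups alone (0.108 and 0.188).

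The rHDL effect itself differed between loaded and unloaded cells for many members. The test of the difference called 21 of 145 higher after loading and 31 lower, where 30.2% of all 8965 genes tested were called, 16% higher and 14.2% lower. With library totals the split was 16 and 51. A negative difference means a smaller rise or a larger fall after loading. The difference uses the same unloaded libraries as the rHDL effect without loading. Where the effect after loading is small, its sign is therefore bound to oppose that effect.

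Slc9a9, which fell with rHDL in unloaded cells, had 78.5, 79.1 and 69.9 CPM after loading and 63.1, 64.9 and 73.1 CPM after loading and rHDL. Those libraries overlapped, the log2 fold change was -0.18 ± 0.08 and the difference from unloaded cells was 1.497 ± 0.12 (adjusted p = 1.8e-06). Slc28a2 had 365, 444 and 372 CPM after loading and 381, 468 and 432 CPM with rHDL added, overlapping as well, with a difference of 0.99 ± 0.13 (adjusted p = 7.09e-05).

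Slc12a9 had 43.4, 35.5 and 43 CPM after loading and 49.8, 35.2 and 44.2 CPM with rHDL added, a difference of 1.18 ± 0.20 (adjusted p = 0.000463) on the log2 scale. Slc12a7 had 93.2, 80.5 and 83.8 CPM and 88.3, 79.9 and 99.4 CPM, a difference of 0.80 ± 0.14 (adjusted p = 0.000645). Both had overlapping groups after loading and separate ones without it. Slc30a1 differed by 0.78 ± 0.18, Slc25a12 by 0.83 ± 0.19, Slc25a28 by 0.65 ± 0.12 and Slc39a1 by 0.40 ± 0.08. Slc13a3 stood out in direction. It had 25.6, 20.3 and 31 CPM after loading and 33.2, 31.8 and 37.6 CPM with rHDL added, higher without overlap but not called (adjusted p = 0.325), and a difference of 1.33 ± 0.25 (adjusted p = 0.000998). With replicate number added to edgeR's fit, the rise after loading was called (adjusted p = 0.0392).

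Members that rose with rHDL in unloaded cells showed the reverse. Slc20a1 had 35.1, 36.7 and 35.2 CPM after loading and 26.4, 38.6 and 32.1 CPM with rHDL added, and its difference was -0.97 ± 0.22 (adjusted p = 0.00428). Slc41a2 had 52.7, 62.5 and 58.9 CPM and 46.7, 67.1 and 60.5 CPM, a difference of -0.85 ± 0.17 (adjusted p = 0.00161). Slc7a6 had 10.2, 14.5 and 10.2 CPM and 7.17, 10.8 and 7.24 CPM, a difference of -1.30 ± 0.32 (adjusted p = 0.0066). In all of these the loaded groups overlapped.

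Slc38a7 (difference -0.82 ± 0.15), Slc12a2 (-0.78 ± 0.18), Slc39a6 (-0.71 ± 0.14), Slc25a1 (-0.61 ± 0.11), Slc27a1 (-0.61 ± 0.10) and Slc25a37 (-0.53 ± 0.10) belonged with them. Slc43a3 did not pass the test of the difference, at -1.15 ± 0.44 (adjusted p = 0.0604), but did without LPS library 3, at -1.61 (adjusted p = 0.0184). It also passed in edgeR with replicate number added to the fit, at -1.16 (adjusted p = 0.0369), and with library totals, at -1.32 (adjusted p = 0.0308). Slc6a6 did not pass in the main fit, at 0.25 ± 0.13 (adjusted p = 0.174), but did without loaded rHDL library 1, at 0.35 (adjusted p = 0.0307).

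**Figure D5:**
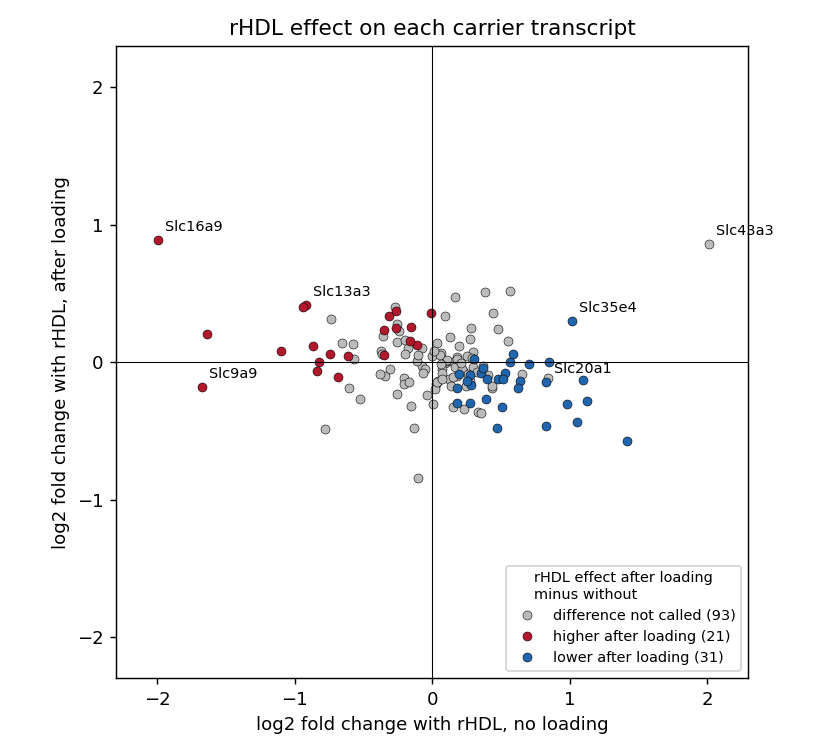
Log2 fold change with rHDL without loading (horizontal axis) and after loading (vertical axis) for the 145 members tested, coloured by the call of the difference between them. The points spread from -1.997 to 2.01 along the horizontal axis and from -0.84 to 0.89 along the vertical one.

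Loading alone, compared under LPS, called 9 of 145 members higher and 7 lower, where 8.57% of all 8965 genes tested were called, 3.99% higher and 4.57% lower. With library totals 12 rose and 5 fell. With replicate number added to edgeR's fit more members fell (count below). This comparison shares its LPS libraries with the rHDL comparison without loading. The count of risers rests on single libraries: it was 4, 2 and 1 without LPS libraries 1, 2 and 3 and 5, 3 and 1 without loaded LPS libraries 1, 2 and 3, and the count of members that fell was 4 without loaded LPS library 3.

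The rise that kept its call in each of those cases was that of Slc25a10, the mitochondrial dicarboxylate carrier (chr11:120491837-120501161, plus strand). It had 42.2, 50.4 and 55.3 CPM with LPS and 78.5, 89.6 and 84.7 CPM after loading, with no overlap and a log2 fold change of 0.77 ± 0.11 (adjusted p = 0.000733). Slc28a2 fell from 630, 649 and 617 CPM to 365, 444 and 372 CPM, for a log2 fold change of -0.68 ± 0.09 (adjusted p = 0.000351). Slc25a37 fell from 330, 307 and 310 CPM to 239, 219 and 220 CPM, for a log2 fold change of -0.48 ± 0.07 (adjusted p = 0.00085).

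Slc9a3r1 fell from 229, 232 and 209 CPM to 146, 158 and 140 CPM, for a log2 fold change of -0.59 ± 0.08 (adjusted p = 0.000298). Slc7a8 fell from 303, 257 and 273 CPM to 197, 180 and 198 CPM, for a log2 fold change of -0.54 ± 0.09 (adjusted p = 0.00161). The loaded and unloaded libraries were apart in these genes. Slc25a37 therefore covered 307 to 330 CPM with LPS and 443 to 492 CPM with rHDL in unloaded cells, and 218 to 250 CPM over the loaded libraries with and without rHDL.

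Carriers of the same classification whose symbols do not start with Slc and a digit, such as the Slco genes, were looked at as 1 list of 32 genes. Their counts are with TMM alone. With LPS 18 were tested, of which 3 rose and 10 fell, where 35.3% of all genes tested rose and 37.6% fell. The organic anion transporter Slco3a1 rose from 10.2 ± 0.90 CPM (SD, n = 3) to 173 ± 17.8 CPM, for a log2 fold change of 4.08 ± 0.11, and Sfxn5, a sideroflexin of the mitochondrial inner membrane, fell by 2.42 ± 0.21. With rHDL 17 were tested, of which 8 rose and 3 fell, where 18.1% of all genes tested rose and 18.4% fell. Slco4a1, which carries thyroid hormone, rose from 6.19 ± 0.99 CPM to 21.2 ± 0.42 CPM, for a log2 fold change of 1.76 ± 0.16, and its difference after loading was -2.23 ± 0.25. After loading rHDL raised 1, the mitochondrial proton carrier Ucp2, by 0.34 ± 0.07 (adjusted p = 0.0209), and lowered none. Over all genes tested it raised 0.424% and lowered 0.591%. The difference was called higher for 2 and lower for 5, where the shares over all genes were 16% and 14.2%. Loading alone raised 2 and lowered none, where the shares were 3.99% and 4.57%.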

How the data were processed

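RNA from bone marrow-derived macrophages was measured by poly(A) RNA-seq. The authors' files hold raw counts per annotated gene row, and per the submitters' processing notes cutadapt, HISAT2, featureCounts of Subread and DESeq2 were used with mm10. For versions, strand and annotation the sources used here give nothing. The authors' deposited tables of rHDL-changed genes hold log2 fold changes and adjusted p-values. They were used only to count members listed and to give the limits of their fold changes.

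Rows were summed per symbol and the tables fitted apart with edgeR 4.0.16 (R 4.3.3): filterByExpr with a minimum count of 10, TMM, the quasi-likelihood test and Benjamini-Hochberg adjustment over all genes tested. The fit of the second table holds its 4 groups together. The method was tested on simulated data. Alternatives were DESeq2 1.42.0, its size factors in edgeR, library totals, other filters, a replicate block, a minimum of 1.5-fold, the compared groups alone, 1 row per gene, members without shared bases, and leaving out each library.

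Members and lists were chosen with earlier results of these data known. Named genes are a part of those that a rule takes: in each comparison the 8 largest rises and falls among called members with a mean of at least 2 log2 CPM and no overlap, or the 8 smallest p for the difference, and a panel. Others were named after their values were seen.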

Additional observations from a re-analysis of the deposited data

Results flagged for a closer look

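For the following members the rHDL effect differed between loaded and unloaded cells by the test of the difference itself, in edgeR's quasi-likelihood fit over all genes. Each value is the log2 fold change with rHDL after loading minus that without loading. The difference was above 0 for carriers that fell with rHDL in unloaded cells: Slc16a9 (2.88), Slc9a9 (1.497), Slc13a3 (1.33), Slc12a9 (1.18), Slc28a2 (0.99), Slc25a12 (0.83), Slc12a7 (0.80), Slc30a1 (0.78), Slc25a28 (0.65), Slc44a1 (0.51) and Slc39a1 (0.40). It was below 0 for carriers that rose: Slc17a9 (-1.495), Slc9b2 (-1.40), Slc7a6 (-1.30), Slc20a1 (-0.97), Slc41a2 (-0.85), Slc38a7 (-0.82), Slc12a2 (-0.78), Slc39a6 (-0.71), Slc25a1 (-0.61), Slc27a1 (-0.61) and Slc25a37 (-0.53). These members were picked from those past the test, and 30.2% of all genes tested were past it. The opposite signs are no separate result, because the difference subtracts the rHDL effect in the same unloaded libraries. The summed macrophage markers were lower with rHDL and LPS than in the other 3 groups of the second table, and their part in these differences was not tested.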

How the results depend on the processing

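With library totals 22 members rose with LPS, none with rHDL after loading, and the difference was lower for 51. Slc25a3 and Slc20a1 then stood at -0.28 and -0.048 with LPS, and Slc43a3 passed the test of the difference (-1.32, adjusted p = 0.0308 in edgeR). With a minimum of 1.5-fold, 28 rose and 39 fell with LPS, 3 and 3 with rHDL and 0 after loading, the difference was higher for 6 and lower for 1, and loading called 0 and 0. In a fit of the compared groups alone 0 rose with rHDL after loading. Without single libraries, 0 to 2 members rose with rHDL after loading, and loading raised 1 to 5 and lowered 4 to 8. The cause was not tested. Of the values of single named genes 1774 kept direction and call, 83 lost a call, 63 of them with the minimum of 1.5-fold, 6 gained one and 2 reversed. DESeq2, its size factors, the other filters and the choices on rows and shared bases kept every count over all members within 1.5 times, but not every count by class.

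The main fit did not treat the replicate numbers as pairs. Each library's deviations from its group mean, per gene in log2 CPM, were correlated between libraries of different groups. For the same number these correlations ran from -0.077 to 0.074 in the first table. In the second they ran from -0.03 to 0.436, with 13 of 18 over 0.1, against 4 of 36 for different numbers. The deviations within a group cancel out, so these counts are not independent of each other. Of 12 libraries in the second table, 9 correlated best in this way with their own number, and 1 of 6 in the first. With the replicate block rHDL after loading raised 7 and lowered 4, and loading lowered 18. Slc13a3 then passed after loading (0.42, adjusted p = 0.0392 in edgeR) and Slc43a3 for the difference (-1.16, adjusted p = 0.0369); every other count over all members stayed within 1.5 times.

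Members near 1 CPM and those with few own bases are the least precise. Values of genes with shared bases describe only the bases counted. With 3 libraries a group, rHDL given only before LPS, and no source named for the libraries, the tests cover the spread between these libraries.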

Other observations

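The choline transporter Slc44a1 fell with rHDL and with loading, each from the same LPS libraries. It had 90.2, 96.5 and 92.5 CPM with LPS, 78.3, 75 and 79.7 CPM with rHDL, 74.4, 75.7 and 73.2 CPM after loading, and 81, 91.4 and 93.4 CPM after loading and rHDL. The log2 fold change was -0.26 ± 0.07 with rHDL (adjusted p = 0.0064, but 0.17 with library totals) and -0.32 ± 0.07 with loading (adjusted p = 0.00889, but 0.0507 without loaded LPS library 3 and 0.0782 with library totals). Its difference was 0.51 ± 0.09 (adjusted p = 0.000979). Of its exon bases 46.25% are its own.

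Some carriers at a few CPM changed with rHDL. Slc17a9, the vesicular nucleotide transporter that loads ATP into secretory granules, had 2.87, 2.18 and 1.42 CPM with LPS and 4.42, 4.94 and 4.14 CPM with rHDL, without overlap, and 2.61, 3.37 and 2.33 CPM after loading against 1.64, 2.43 and 2.04 CPM with rHDL added, with overlap. Slc9b2, a sodium/proton exchanger, rose from 2.02, 2.72 and 2.62 CPM to 5.82, 4.87 and 5.42 CPM, for a log2 fold change of 1.12 ± 0.28 (adjusted p = 0.00519). Slc16a9 fell from 1.38, 0.636 and 0.872 CPM to 0.316, 0.0696 and 0.301 CPM, a call lost without LPS library 1 (adjusted p = 0.0736). These are low counts.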
